A study of Mus musculus with 30 samples.

Results

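The complement system was followed through 8 of its genes in mouse skeletal muscle: C1qa, C1qb, C1qc, C1ra, C4b, C2, C3 and C7. They were taken by name from the deposited expression table, where all 8 were present among 47643 genes, 23193 of which were above 0 in at least 1 library. The tissue was the tibialis anterior, which lifts the foot, from male C57BL/6J mice, and expression was given as TPM, which divides reads by gene length and scales every library to the same total. The 30 libraries fell into 4 experiments, each with its own reference group. Old mice of 24 months (n = 3) were set against young mice of 6 months (n = 3). Animals given dexamethasone, which activates the glucocorticoid receptor, were set against their own control, and animals with LLC cancer against another control (n = 4 each). The labels leave LLC unexplained; the letters are commonly used for the Lewis lung carcinoma of mice. Muscle with siRNAs against Cyr61, which encodes a secreted matrix protein, was set against muscle with NT siRNAs, again an abbreviation the labels do not spell out (n = 4 each). Doses, durations, tumour load and the ages of mice outside the ageing experiment were not used here. The series title asks how molecular changes in muscle wasting depend on the stimulus.

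Complement is a set of proteins of blood and tissue that mark microbes, dying cells and immune complexes for removal. In the classical pathway the recognition molecule C1q, built from A, B and C chains, binds its target and activates the proteases C1r and C1s, which cut C4 and C2 to form an enzyme that cuts C3. C3 fragments coat the target and feed the alternative pathway through factor B, and the terminal components, C7 among them, can assemble into a pore in a membrane. The liver makes most circulating complement, whereas C1q is made mainly by macrophages and related cells, and stromal cells of tissues also transcribe several components.

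C1qa, C1qc and C1qb lie side by side on chromosome 4 of the mm10 build, at chr4:136895917-136898803, chr4:136889804-136893065 and chr4:136880129-136886187, all on the minus strand. C4b (chr17:34728380-34743882), C2 (chr17:34862604-34898265) and C3 (chr17:57203970-57228136) lie on the minus strand of chromosome 17. C1ra lies on the plus strand (chr6:124512405-124523443) and C7 on the minus strand (chr15:4988762-5063740). All 8 are annotated as protein-coding genes in GENCODE M21. The promoters of C1qb and C1qc, which moved together, and of C3, which moved the other way after dexamethasone, follow as RefSeq windows of build GRCm38.p6. Each runs 5′ to 3′ on the gene's strand over 300 bases, from 250 before the start of the gene to 50 after it. The windows are chr4:136886151-136886450 (C1qb), chr4:136892865-136893164 (C1qc) and chr17:57228087-57228386 (C3), all on the minus strand, and capitals mark the letters of any motif searched.
C1qb: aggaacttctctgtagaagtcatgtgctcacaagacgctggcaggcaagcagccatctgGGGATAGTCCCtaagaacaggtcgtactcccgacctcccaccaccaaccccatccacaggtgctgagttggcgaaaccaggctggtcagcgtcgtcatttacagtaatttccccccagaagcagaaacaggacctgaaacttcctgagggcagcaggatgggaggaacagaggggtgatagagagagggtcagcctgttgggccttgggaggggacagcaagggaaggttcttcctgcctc
C1qc: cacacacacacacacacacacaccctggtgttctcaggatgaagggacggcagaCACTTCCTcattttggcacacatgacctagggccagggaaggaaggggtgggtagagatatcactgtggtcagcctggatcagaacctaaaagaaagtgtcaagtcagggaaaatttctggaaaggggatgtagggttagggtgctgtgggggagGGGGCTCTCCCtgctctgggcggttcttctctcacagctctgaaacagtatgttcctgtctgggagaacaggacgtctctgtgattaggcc
C3: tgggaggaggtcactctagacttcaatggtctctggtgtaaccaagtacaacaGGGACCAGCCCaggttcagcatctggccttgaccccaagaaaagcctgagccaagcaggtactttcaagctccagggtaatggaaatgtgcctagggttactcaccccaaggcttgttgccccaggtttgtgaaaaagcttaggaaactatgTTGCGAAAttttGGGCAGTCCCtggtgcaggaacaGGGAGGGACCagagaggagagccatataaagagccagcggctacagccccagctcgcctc
Windows were at hand for 5 of the 8 genes, the other 2 being those of C1ra and C7. Of 6 motifs searched on both strands, the NF-kB form (GGG, then any 5 letters, then CC) was found in the C1qb, C1qc and C3 windows, and in 50.8% of all 32851 windows. C1qc alone of the 5 held the ETS core AGGAAGTG (written here on the opposite strand), present in 4.07% of all windows. C3 and C1ra held the C/EBP form TTGCNNAA (10.8% of all windows), and C1ra and C7 the GAS form TTCNNNGAA (8.30%). None of the 5 held the interferon-response form (GAAA and GAAA with 2 letters between, 3.44%) or the glucocorticoid-response core (GNACA and TGTNC with 3 letters between, 0.475%). Matches of the NF-kB form overlap on the 2 strands, and a match describes letters in the window, not a bound site.

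The reads recovered from the TPM values totalled between 2.46e+07 and 5.02e+07 per library. For the 8 genes they ran from 21 for C4b in young 3 to 8211 for C3 in dexamethasone control 1. C4b has a close copy, C4a, which was at or under 0.130 TPM in all 30 libraries, and C1ra has C1rb, at or under 0.0506 TPM, so little signal was assigned to the copies. C2 overlaps Gm20547 on the same strand (at or under 0.926 TPM) and Zbtb12 on the opposite strand (at or under 7.55 TPM), and reads of such neighbours may be split differently by other counting. Mitochondrial genes took 37.9 ± 3.2% of TPM in dexamethasone muscle and 48.7 ± 2.1% in its control (SD, n = 4 each), against group means from 45.9 to 51.0% elsewhere, and 60.4% in the library LLC 3. Muscle fibre markers summed to between 65174 and 124970 TPM in every library. None of 10 hepatocyte markers reached 1 TPM (highest value 0.583 TPM), and 2 of them, Fgb and Fgg, were at 0 in all 30 libraries. Cyr61 itself read 32.9, 52.8, 45.8 and 25.5 TPM in the 4 Cyr61 siRNA libraries and 57.0, 64.6, 67.8 and 36.8 TPM in the 4 NT siRNA libraries, so these groups overlapped for the targeted gene. The labels call the samples biological replicates.

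The C1q chains were the most abundant of the 8 transcripts in dexamethasone muscle, whereas in its control C3 stood above C1qc. C1qb, the B chain, was highest after dexamethasone at 122, 93.0, 205 and 98.3 TPM, against 81.8, 50.8, 75.9 and 49.1 TPM in the dexamethasone controls. LLC muscle had 23.3, 41.3, 6.45 and 24.5 TPM of C1qb, and its controls 26.6, 44.6, 23.6 and 28.5 TPM. In Cyr61 siRNA muscle C1qb read 9.63, 8.56, 50.2 and 45.4 TPM, against 27.1, 33.8, 40.4 and 14.0 TPM with NT siRNA. The Cyr61 siRNA libraries thus split into 2 low and 2 high values, which enclose the NT siRNA range. Old muscle had 11.2, 6.36 and 5.91 TPM and young muscle 9.09, 5.30 and 3.72 TPM, the lowest groups of the series for all 3 chains. The mean of the highest group was 21.5 times that of the lowest for C1qb, 17.7 times for C1qa and 20.8 times for C1qc. Each of the 4 experiments has its own controls, and differences in level between experiments cannot be told apart from differences in how the experiments were run.

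The proportions of the 3 chains varied less than their summed level, though they differed between some groups. The ratio of C1qa, the A chain, to C1qb lay between 0.762 and 1.24 in the 30 libraries, and that of C1qc, the C chain, between 0.301 and 0.569, while the summed level of the chains ran from 9.87 to 485 TPM. The ratio of C1qc to C1qb ran from 0.301 to 0.392 in LLC muscle and from 0.358 to 0.390 in its control. It ran from 0.441 to 0.492 in dexamethasone muscle and from 0.396 to 0.459 in its control. Each treated group thus overlapped its own control. The LLC libraries and their controls all lay below the dexamethasone libraries and their controls, a difference between experiments. C1q made up 87.0 ± 4.3% of the summed TPM of the 8 genes after dexamethasone and 69.3 ± 3.5% in its control (SD, n = 4 each). It made up 34.9 ± 4.8% in old and 42.3 ± 6.2% in young muscle (SD, n = 3 each).

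C1ra, one of the mouse genes for the protease C1r, varied least. Its group means ran from 14.9 ± 1.6 TPM in the dexamethasone controls to 5.42 ± 1.66 TPM in young muscle. C4b, the C4 gene of this set, ranged most widely between single libraries, from 0.210 TPM in young 3 to 14.3 TPM in Cyr61 siRNA 3, which is 67.8-fold. C2, the protease that joins C4 in the C3-cutting enzyme, was the lowest: it reached 1 TPM in 21 of 30 libraries, with group means from 2.78 ± 0.36 TPM after dexamethasone to 0.795 ± 0.377 TPM in LLC muscle. C3, the component on which the pathways converge, had its highest mean in the dexamethasone controls (40.3 ± 12.4 TPM) and its lowest in young muscle (10.2 ± 4.8 TPM). C7, which inserts the growing terminal complex into the membrane, had its highest mean in old muscle (4.87 ± 2.65 TPM) and its lowest in LLC muscle (0.841 ± 0.312 TPM). When the 8 groups were put in order of mean level for each gene, 48 of the 56 neighbouring pairs had overlapping values. The 8 that did not were dexamethasone above its control for C1qa, C1qb and C1qc, the dexamethasone controls above the next group for the same chains and for C2, and LLC below its control for C7.

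**Figure D1:**
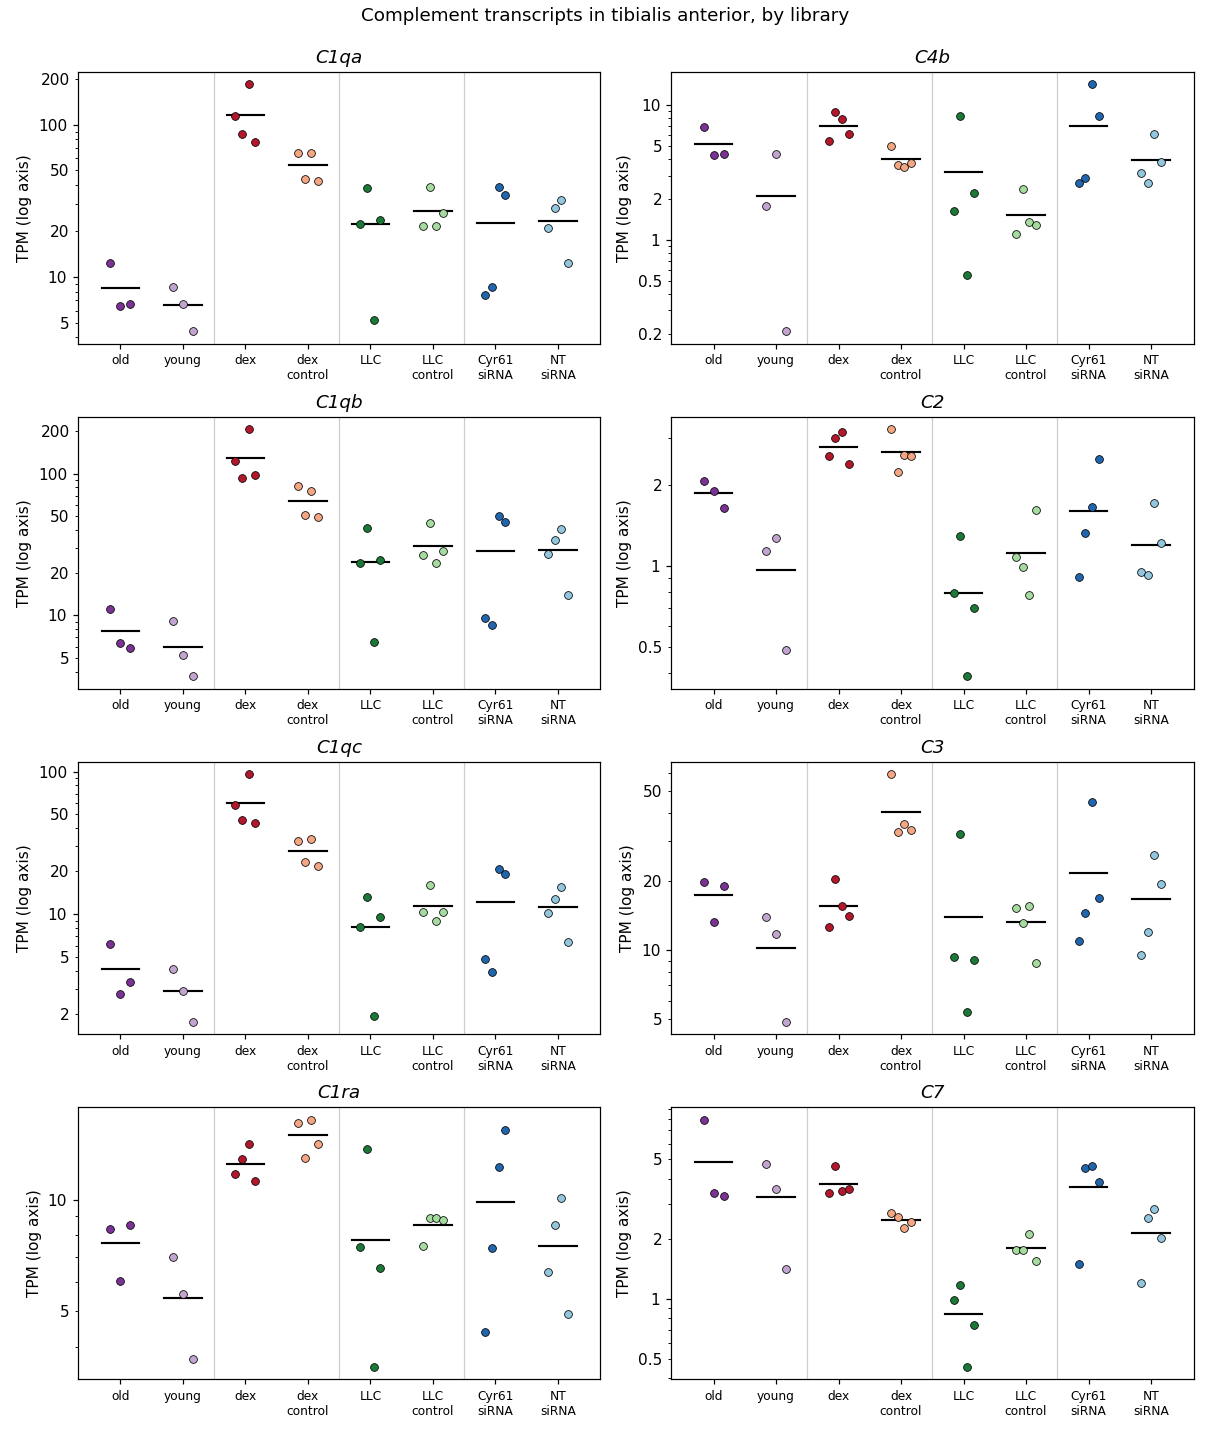
TPM (log axis) of the 8 complement genes, with 1 point per library and the group mean as a bar, in 8 groups arranged by experiment. The dexamethasone libraries stand above all others for C1qa, C1qb and C1qc, the dexamethasone controls hold the highest C3 value (58.8 TPM), and LLC muscle holds the lowest C7 value (0.457 TPM).

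Single libraries moved many of these genes together. Young 3 had the lowest value of its group for all 8 genes, and LLC 3 likewise among the LLC libraries, with 6.45 TPM of C1qb, 5.38 TPM of C3, 0.547 TPM of C4b and 0.457 TPM of C7. LLC 2 had the highest value of its group for all 8, with 32.1 TPM of C3 and 8.26 TPM of C4b. Over the 30 libraries the C1q chains correlated at Pearson's r of 0.99 with each other on the log2(TPM + 1) scale, and at 0.99 again after each group's mean was taken out. C1qb and C7 were the least alike, with r of 0.13 over the 30 libraries and 0.49 within groups, followed by C1qa and C7 with 0.17 and 0.52. C3 and C4b had r of 0.66 over all libraries and 0.85 within groups. These coefficients are descriptions: libraries of 1 experiment share depth and handling, and values of 1 library share its mitochondrial share.

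**Figure D2:**
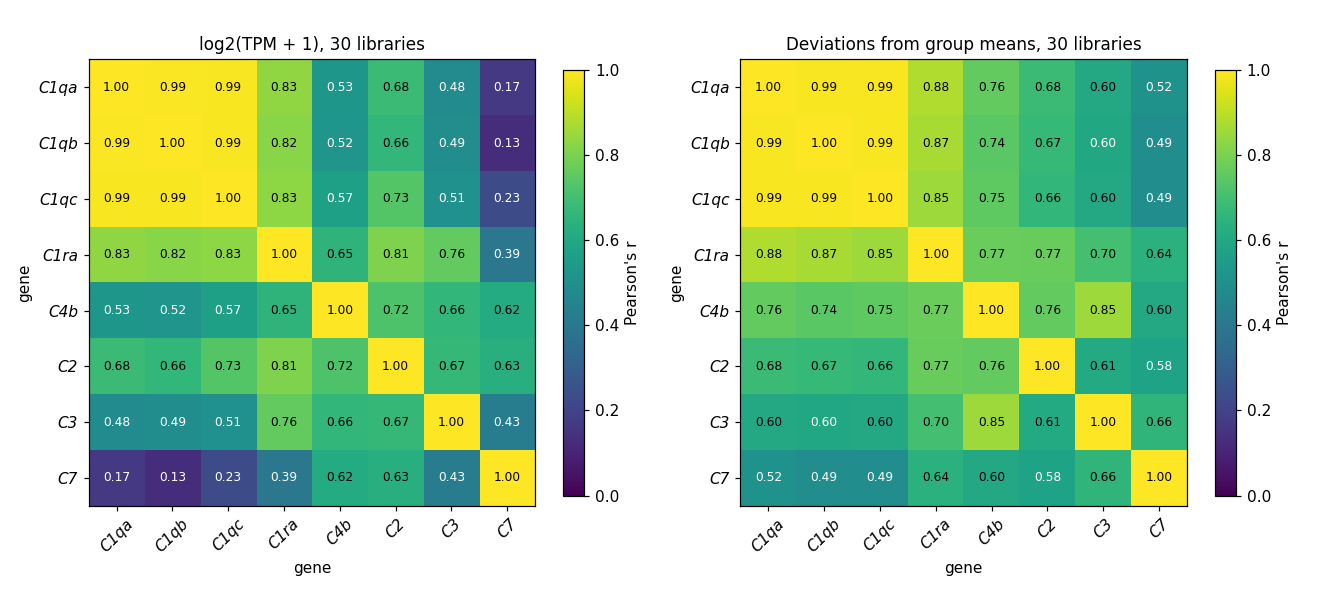
Pearson's r between the 8 complement genes over 30 libraries, for log2(TPM + 1) at left and for deviations from the group means at right. The C1q chains form a block at 0.99 in both panels, and the lowest coefficients, 0.13 for C1qb and 0.17 for C1qa, are those with C7 at left.

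The genes whose pattern was most like each member were looked for outside the 8, among genes with a mean of at least 5 TPM. Fcgr3, an Fc receptor for immunoglobulin G, came first among these for each C1q chain (r = 0.99, 0.99 and 0.98 over 30 libraries). Fcer1g, the signalling chain of Fc receptors, followed for C1qa and C1qb (r = 0.98 and 0.99), and Ctsh, a lysosomal protease, for C1qc (r = 0.98). The third places went to Tyrobp for C1qa, Ctss for C1qb and Unc93b1 for C1qc (each r = 0.98). C1ra was closest to C1s1, the partner protease of C1r (r = 0.96), followed by Serping1, the inhibitor of both proteases (r = 0.92), and the matrix gene Dpt (r = 0.89). C2 was closest to Serping1 (r = 0.90), then to Add3 and Ogn (each r = 0.89). C3 was closest to the chemokine gene Ccl8 (r = 0.82) and to Samhd1 (r = 0.79), with Cfb, which encodes factor B, in the third place (r = 0.78, and 0.79 within groups). C4b was closest to Rarres2 (r = 0.82) and then to Apod and Serpina3n (each r = 0.80). C7 was closest to Fut8 (r = 0.87), with Isoc1 (r = 0.76, but 0.34 within groups) and Atg4a (r = 0.75) behind it.

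Dexamethasone muscle carried more of all 3 C1q chains and of C4b and C7, and less C3, than its control. Of the 8 genes 5 were higher and 1 lower at a Benjamini-Hochberg adjusted p under 0.05 in limma on log2(TPM + 1); of all 11944 genes tested, 35.9% were higher and 1.51% lower. The median change of all genes was 0.33 on the log2 scale, and 0.02 after median-of-ratios scaling, which sets the typical gene to no change. After that scaling none of the 8 was called higher, against 4.44% of all genes, and 2 were called lower, C3 and C1ra, against 4.71%. The call on C3 thus held under both scales, while the 5 increases were called on the TPM scale only.

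C1qa read 113, 86.7, 184 and 77.4 TPM after dexamethasone, against 64.8, 43.7, 65.4 and 42.7 TPM in the control, and C1qc read 57.9, 45.8, 95.3 and 43.3 TPM against 32.4, 23.3, 33.9 and 21.8 TPM. All dexamethasone values of the 3 chains lay above all control values, with dexamethasone 3 the highest each time; 36% of all genes had groups that did not overlap. The log2 change was 1.02 ± 0.26 for C1qa (SE, limma adjusted p = 0.0156), 0.96 ± 0.25 for C1qb (adjusted p = 0.0189) and 1.05 ± 0.24 for C1qc (adjusted p = 0.0115). Relative to the median gene these changes were 0.69, 0.63 and 0.72. After scaling they were 0.66, 0.60 and 0.69, with adjusted p = 0.213, 0.257 and 0.164. Without dexamethasone control 2 the limma adjusted p was 0.0515 for C1qa and 0.0597 for C1qb, and without dexamethasone control 4 it was 0.0514 for C1qb.

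Macrophage markers moved in the same libraries. Of 15 such markers 12 were higher after dexamethasone and 1, Cd74, lower, and 8 and 1 after scaling; their sum ran from 1147 to 2680.5 TPM after dexamethasone and from 515 to 841 TPM in the control. Among them Cd68, a lysosomal protein of macrophages, averaged 67.0 TPM against 20.8 TPM, and Csf1r, the receptor for macrophage colony-stimulating factor, 27.4 TPM against 11.2 TPM. The C1q chains summed to 0.181 ± 0.009 of the macrophage markers' sum after dexamethasone and to 0.217 ± 0.008 in the control (SD, n = 4 each). In that sum the marker Lyz2 alone reached up to 2034 TPM. Over single markers the ratio of C1qb depended on the marker. It was 4.68 ± 1.06 against 5.79 ± 0.81 for Csf1r and 6.92 ± 0.75 against 7.40 ± 0.79 for Adgre1, both with overlap. For Cd68 it was 1.91 ± 0.29 against 3.13 ± 0.20, without overlap. The part of the macrophage markers in the C1q result was not tested, and in bulk tissue a change in the number of cells of a type and a change in RNA per cell cannot be told apart.

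**Figure D3:**
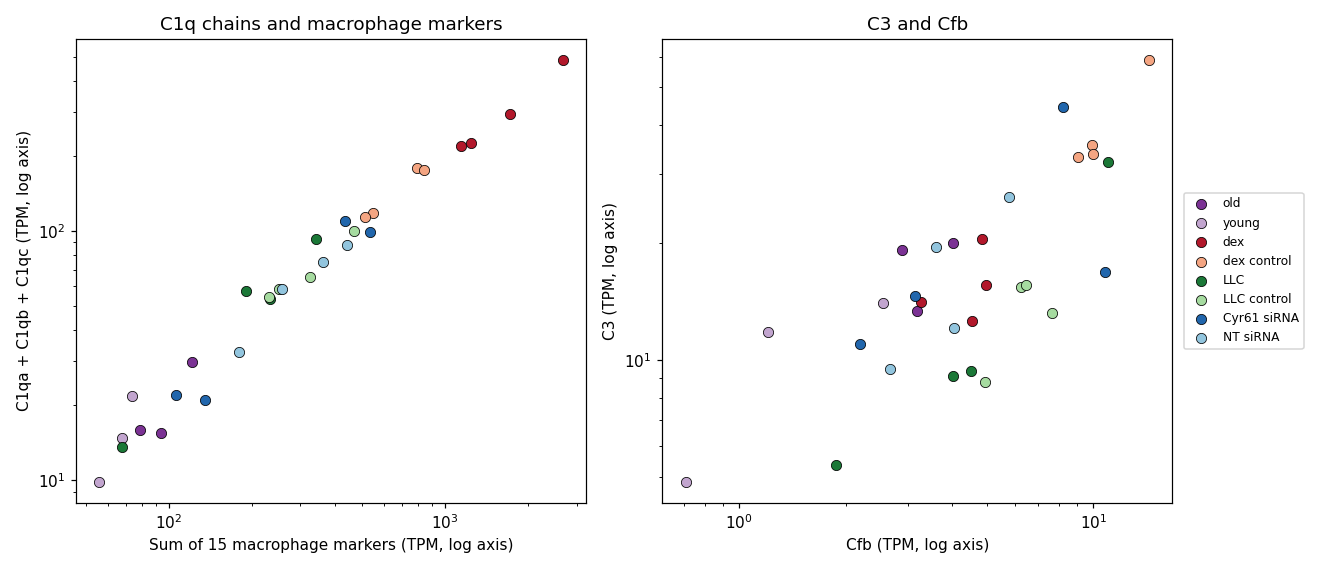
Left, the summed TPM of the 3 C1q chains against the summed TPM of 15 macrophage markers, and right, C3 against Cfb, in TPM on log axes with 1 point per library coloured by group. The C1q sum runs from 9.87 to 485 TPM along the marker sum, with the dexamethasone libraries at the top, while the dexamethasone libraries lie below their controls for both C3 and Cfb.

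C3 stood at 12.6, 20.4, 15.6 and 14.1 TPM after dexamethasone, against 58.8, 33.1, 35.6 and 33.7 TPM in the control. Every dexamethasone value was below every control value, and dexamethasone control 1 was higher than the other controls. C3 fell by 1.29 on the log2 scale (SE 0.20, limma adjusted p = 0.0027), or by 1.64 after scaling (adjusted p = 0.0018). Cfb, whose product joins C3 in the enzyme of the alternative pathway, fell by 1.12 (limma adjusted p = 0.0023), with 4.41 ± 0.79 TPM after dexamethasone and 10.8 ± 2.4 TPM in the control (SD, n = 4 each). The ratio of C3 to Cfb was 3.61 ± 0.78 after dexamethasone and 3.68 ± 0.30 in the control. Lymphocyte markers summed to 19.1 ± 4.7 TPM against 56.8 ± 15.8 TPM, and 13 of 16 interferon-stimulated genes were lower (16 after scaling). Acute phase genes, a list to which C3 is often counted as well, went the other way, with 9 of 10 higher (6 after scaling) and a median log2 change of 1.76. The part of these groups in the C3 result was not tested.

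C4b and C3 moved in opposite directions. C4b read 5.39, 8.84, 7.88 and 6.05 TPM after dexamethasone, against 4.99, 3.61, 3.47 and 3.71 TPM in the control, with no overlap, and rose by 0.69 ± 0.16 (log2, SE, limma adjusted p = 0.0123; 0.38 after scaling, adjusted p = 0.111). The ratio of C4b to C3 was 0.449 ± 0.038 after dexamethasone and 0.1004 ± 0.0119 in the control (SD, n = 4 each), and a ratio within a library does not depend on its scaling.

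C7 read 3.41, 4.62, 3.48 and 3.57 TPM after dexamethasone, against 2.71, 2.57, 2.28 and 2.43 TPM in the control, again without overlap. Its log2 change of 0.44 ± 0.12 (SE, limma adjusted p = 0.0185) was 0.11 above the median gene and 0.16 after scaling (adjusted p = 0.334). Leaving out dexamethasone control 2, 3 or 4 gave adjusted p of 0.0546, 0.0530 and 0.0531 for C7. Fibroadipogenic markers, of the stromal cells between muscle fibres, summed to 1764 ± 276 TPM after dexamethasone and 1426 ± 186 TPM in the control (SD, n = 4 each). Of these 14 markers 5 passed as higher and 2 as lower, against 35.9% and 1.51% of all genes. The share called higher thus lay near that of all genes. Their median log2 change was 0.29, beside 0.33 for all genes, and -0.07 after scaling. On the scaled values 0 were higher and 2 lower, against 4.44% and 4.71% of all genes. Their part in the C7 result was not tested. C1ra had 11.7, 12.9, 14.1 and 11.2 TPM after dexamethasone, against 16.1, 12.98, 16.4 and 14.1 TPM in the control; its log2 change of -0.24 ± 0.12 did not pass (adjusted p = 0.116), whereas after scaling it was -0.58 (adjusted p = 0.0183). C2 overlapped fully, with 2.57, 3.00, 3.16 and 2.40 TPM against 3.23, 2.247, 2.59 and 2.56 TPM, a log2 change of 0.05 that turned to -0.22 after scaling (adjusted p = 0.729 and 0.302).

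**Figure D4:**
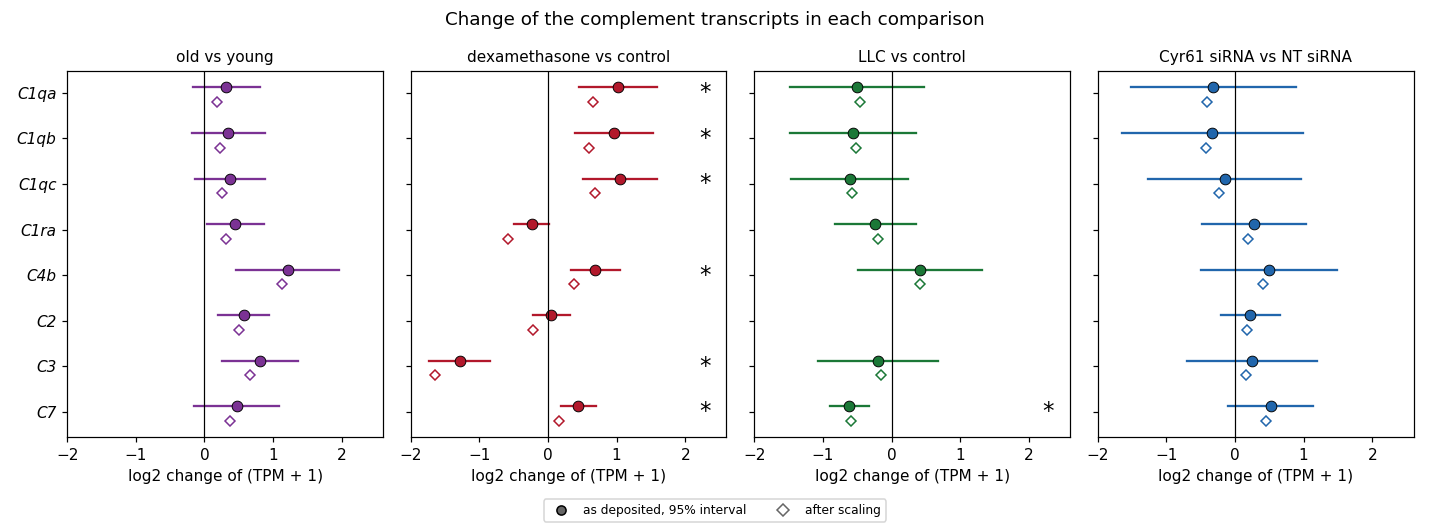
Log2 change of TPM + 1 of the 8 genes in the 4 comparisons, as deposited (filled circles, with the 95% interval) and after median-of-ratios scaling (open diamonds); asterisks mark an adjusted p under 0.05 as deposited. C2 was not tested in the LLC comparison, and C3 after dexamethasone lies furthest to the left, at -1.29 and -1.64.

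Of the other complement genes, 47 were in the table and 23 were high enough to be tested after dexamethasone; 9 were higher and 2 lower, against 35.9% and 1.51% of all genes, or 3 and 3 (Cfb, Cd59a and Cd59b) after scaling, against 4.44% and 4.71%. Their median log2 change was 0.32, beside 0.33 for all genes, so the share called higher lay near that of all genes. Fcna, a ficolin that recognises sugars for the lectin pathway, averaged 5.02 ± 1.04 TPM after dexamethasone and 0.785 ± 0.330 TPM in the control (SD, n = 4 each); 1 control library reached 1 TPM, so Fcna was tested on account of its dexamethasone values, and its call is not independent of that filter. The receptors for the small fragments of C5 and C3 were higher too, C5ar1 by 1.49 (limma adjusted p = 0.0027) and C3ar1 by 1.29 (adjusted p = 0.0048), and Fcna, C5ar1 and C3ar1 were the genes still called higher after scaling. Itgb2 and Itgax, chains of receptors for C3 fragments, changed by 1.33 and 1.08, and Serping1 by 0.37. The lectin pathway protease Masp1 changed by 0.54 and the collectin Colec12 by 0.53. On the lower side, Cd59b, an inhibitor of the terminal complex, fell by 0.45 (adjusted p = 0.0122), and C1s1 read 36.4 ± 5.0 TPM against 38.0 ± 4.8 TPM with no call. Of the terminal genes besides C7, 1 of 6 (C8g) reached 1 TPM in any library, with a maximum of 1.94 TPM, and the C5 gene Hc stayed at or under 0.0489 TPM.

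In old muscle all 8 genes had a higher mean than in young muscle, but none passed the test. The limma count was 0 of 8 at an adjusted p under 0.05, where 0.171% of 10511 genes passed, and 4 of 8 at an unadjusted p under 0.05, where 11.2% of all genes did. C4b read 6.90, 4.28 and 4.31 TPM in old muscle, against 1.77, 4.34 and 0.210 TPM in young muscle, so 1 young value lay within the old range. Its log2 change was 1.21 ± 0.35 (SE, limma adjusted p = 0.207). C3 read 19.9, 13.3 and 19.2 TPM in old muscle, against 14.0, 11.8 and 4.86 TPM in young muscle, a change of 0.81 ± 0.26 (adjusted p = 0.279). C2 read 2.08, 1.90 and 1.64 TPM in old muscle, against 1.14, 1.27 and 0.486 TPM in young muscle, and its groups did not overlap, as was so for 16.2% of all genes. Its log2 change was 0.57 ± 0.17 (limma adjusted p = 0.232). C1ra read 8.33, 6.03 and 8.54 TPM against 7.01, 5.55 and 3.71 TPM, and changed by 0.45 ± 0.20 (adjusted p = 0.419).

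The other genes overlapped between the ages. C7 read 7.92, 3.40 and 3.28 TPM in old muscle, against 4.76, 3.56 and 1.41 TPM in young muscle, and the 3 C1q chains had log2 changes of 0.32, 0.35 and 0.37 (limma adjusted p from 0.572 to 0.602). The median change of the 8 genes was 0.46, and that of all genes 0.14. Young 3 set much of the spread, with the lowest young value of each gene and 21 reads for C4b. C3 and C4b were called in limma without old 2 (adjusted p = 0.0007 for C3), without young 1 (adjusted p = 0.0016 and 0.0061) and without young 2 (adjusted p = 0.0045 for C3), and neither was called without young 3, old 1 or old 3. With 1 library left out, the number of all genes called higher ran from 0 to 252, against 16 in the main fit. The calls on C3 and C4b are therefore not read as particular to them. None of the 17 other complement genes tested was called. Among those with values that did not overlap, as was so for 16.2% of all genes, were C1s1, Cfb, Serping1 and Cd55. Their log2 changes ran from 0.54 to 0.87 (limma adjusted p from 0.121 to 0.232). How many of the 17 did not overlap is not given here.

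Under LLC cancer C7 was the 1 member that passed the test. C7 read 0.992, 1.18, 0.457 and 0.741 TPM in LLC muscle, against 1.77, 1.75, 2.10 and 1.54 TPM in the control, with every LLC value below every control value, as for 7.63% of genes in either direction. C7 fell by 0.61 on the log2 scale (SE 0.13, limma adjusted p = 0.0496) and by 0.59 after scaling (adjusted p = 0.0298). It was 1 of 7 members tested, where 0.886% of 10830 genes were called lower. C7 met the filter of 1 TPM in 4 libraries through its control libraries alone, since 1 LLC library reached 1 TPM, and without a filter it was not called (adjusted p = 0.132). The call sat at the threshold: it was lost with a pseudocount of 0.5 (adjusted p = 0.0574), and without any 1 of LLC 1 and LLC 4 or of the 4 control libraries (adjusted p from 0.0965 to 0.130), with a log2 change between -0.66 and -0.56. C7 had between 33 and 71 reads in the LLC libraries and between 103 and 145 in the control, and these may be low by a whole factor because its counted length differs from the annotated one. Fibroadipogenic markers summed to 569 ± 235 TPM in LLC muscle and 850.3 ± 32.3 TPM in the control (SD, n = 4 each), with 1 of 14, Clec3b, called lower. Red cell markers summed to between 717 and 7808 TPM in LLC muscle and between 622 and 792 TPM in the control. Lymphocyte markers summed to between 17.1 and 37.8 TPM in LLC muscle and between 44.5 and 65.6 TPM in the control, without overlap, and of the 2 tested Ighm was called lower. Neutrophil markers summed to between 35.8 and 102 TPM in LLC muscle and between 1.305 and 112 TPM in the control. The 112 TPM belonged to LLC control 2, and the other control libraries were at or under 5.48 TPM. Of the 4 neutrophil markers tested Csf3r was called higher. The part of these cells in the C7 result was not tested.

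The remaining members overlapped between LLC and control. C3 read 9.37, 32.1, 5.38 and 9.08 TPM in LLC muscle, against 15.3, 13.2, 15.6 and 8.79 TPM in the control, a log2 change of -0.19 ± 0.40 (limma adjusted p = 0.910). C4b read 1.64, 8.26, 0.547 and 2.245 TPM against 1.12, 2.39, 1.37 and 1.29 TPM, a change of 0.42 ± 0.41 (adjusted p = 0.756). The LLC values thus reached both below and above the controls for these genes, with LLC 3 and LLC 2 at the ends. The C1q chains had changes of -0.51, -0.56 and -0.61 (adjusted p from 0.564 to 0.714), and C1ra of -0.24 (adjusted p = 0.802). Without LLC 3 the sign turned for C1qa (0.04), C1ra (0.04) and C3 (0.12), and without LLC 2 for C4b (-0.08). C2 stayed under the filter of 1 TPM in 4 libraries, with 0.795, 1.30, 0.388 and 0.698 TPM in LLC muscle and 1.08, 0.994, 0.781 and 1.62 TPM in the control. None of the 20 other complement genes tested was called.

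Between Cyr61 siRNA and NT siRNA muscle no difference passed the test for any of the 8 genes: limma called 0 of them, as it did of all genes, and 0 had an unadjusted p under 0.05, against 0.99% of 11006 genes. C7 came nearest, with 1.501, 4.51, 4.66 and 3.87 TPM in Cyr61 siRNA muscle and 1.20, 2.53, 2.83 and 2.02 TPM in NT siRNA muscle, a log2 change of 0.52 with a 95% interval from -0.10 to 1.14 (unadjusted p = 0.0888 in limma, adjusted p = 0.999). C3 read 10.98, 14.6, 44.5 and 16.8 TPM against 9.48, 12.04, 26.1 and 19.4 TPM, and C4b read 2.65, 2.87, 14.3 and 8.32 TPM against 3.12, 2.66, 6.11 and 3.79 TPM. Cyr61 siRNA 3 was the highest library of this experiment for C3, C4b and C1qb. That library also had a lymphocyte marker sum of 5424 TPM, against 75.1 to 138 TPM in the other Cyr61 siRNA libraries and 31.6 to 2958 TPM with NT siRNA; the part of these cells was not tested. The interval for C1qb ran from -1.65 to 0.98 and so held changes of both signs. None of the 19 other complement genes tested was called.

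The responses themselves were compared in a fit of 22 libraries, each response taken against its own control. The LLC response lay below the dexamethasone response for C1qa by -1.53 (SE 0.55, limma adjusted p = 0.0440), C1qb by -1.52 (adjusted p = 0.0409), C1qc by -1.66 (adjusted p = 0.0231) and C7 by -1.05 (adjusted p = 0.0215). These 4 of 8 stood beside 26.5% of 12392 genes called lower in this contrast, and 0 were called after scaling, against 3.7% of genes, when the differences were -1.12, -1.10, -1.26 and -0.77. Leaving out LLC 3 gave -0.98 for C1qa, -1.02 for C1qb and -0.95 for C7, with adjusted p of 0.0921, 0.0913 and 0.0533, and leaving out dexamethasone 3 gave -1.42 for C1qc (adjusted p = 0.0537). In all, the call ended without any 1 of 11 libraries for C1qa (adjusted p up to 0.0931) and of 8 for C1qb (up to 0.0913), both controls' libraries among them. C3 differed in the other direction without passing, by 1.10 ± 0.51 (adjusted p = 0.0948).

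The dexamethasone response of C3 lay below its response to age, by -2.10 (SE 0.55, limma adjusted p = 0.0453) and by -2.31 after scaling (adjusted p = 0.0154). It was the 1 of 8 called in this contrast, where 0.759% of genes were lower. The call on the TPM scale was at the threshold: it ended without any 1 of 17 of the 22 libraries, and without young 3 the difference was -1.68 (adjusted p = 0.141). It was kept without young 1, dexamethasone 2, LLC 2, LLC 3 or LLC control 4. Between the LLC response and the response to age limma called none of the 8, where 0.0484% of genes passed, and 2 had an unadjusted p under 0.05 (11.8% of genes did): C2 with -0.82 (adjusted p = 0.168) and C7 with -1.08 (adjusted p = 0.213).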

How the data were processed

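RNA of 30 tibialis anterior samples was sequenced from TruSeq stranded mRNA libraries on an Illumina instrument, per the labels' protocols. The authors deposited TPM per gene, and each of the 30 columns sums to 1000000. The build was mm10, per the submitters' processing notes; the aligner, the counting, its strand setting and the annotation were not given in the sources used here. Low TPM values within a library stand in whole-number steps, from which reads were recovered (tolerance 0.05 read): 15806 genes came out whole with the exon length of GENCODE M21, 7353 with another length and 34 not at all, so totals may be low. Of the 8 members 7 used the exon length, and C7 another. A floor of 3 reads is 0.0512 to 0.0995 TPM for a gene of 2 kb, for counting error alone.

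Values were log2(TPM + 1), for genes that reached 1 TPM in a number of libraries equal to the size of the smaller group. Each pair of groups had its own fit with a variance trend in limma 3.58.1 (R 4.3.3), two-sided, with Benjamini-Hochberg adjustment over all genes tested; 1 fit of 22 libraries gave the differences between responses. Groups came from the labels. Named genes were all 8 members, the passing genes of a list of other complement genes (at most 8 per direction by size), and the 3 genes most correlated with each member; with 9 passing genes after dexamethasone, the ninth, Serping1, was named after its values were seen, and 1 is not reported here. In old muscle C1s1, Cfb, Serping1 and Cd55 did not pass and were named outside this rule. Members, lists and tests were chosen with earlier results of these data known. Motifs were searched in RefSeq promoter windows. The pipeline was tested on simulated data. Tables were read with pandas 2.3.3 and numpy 2.4.6 under Python 3.11.15, and plots drawn with matplotlib 3.10.9. Alternatives were other pseudocounts, filters and scalings, all groups in 1 fit, robust variances, a replicate block, an adjusted p under 0.01 and leaving out each library.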

Additional observations from a re-analysis of the deposited data

Results flagged for a closer look

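In 3 of the 48 sets of 4 libraries, 1 library stood far from the rest by Dixon's test at 95%. Chance alone gives about 1 set in 20. The gaps and ranges of the test were taken on log2(TPM + 1), while levels are given in TPM. C1ra in LLC control 1, at 7.50 TPM, was lowest of its group, and its gap to the nearest library was 0.929 of the whole range. C3 in dexamethasone control 1 was highest, at 58.8 TPM with a gap of 0.874. C7 in dexamethasone 2 was highest, at 4.62 TPM with a gap of 0.855.

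On the TPM scale a limma test of the difference between responses called C1qa (-1.53), C1qb (-1.52), C1qc (-1.66) and C7 (-1.05) in LLC minus dexamethasone. In that contrast 26.5% of 12392 genes were called lower. None of these members was called there after median-of-ratios scaling (limma adjusted p from 0.153 to 0.265). In dexamethasone minus old C3 was called (-2.10), where 0.759% of genes were lower. The call on C3 ended without any 1 of 17 libraries. All values are log2 differences.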

How the results depend on the processing

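Members called higher after dexamethasone numbered 5, against 0 after median-of-ratios scaling and 0 after rescaling without mitochondrial and the top 20 genes, 1 with all groups in 1 fit and 0 at an adjusted p under 0.01; leaving out 1 library gave 2 to 5. Members called lower after dexamethasone numbered 1, against 2 under either scaling. C7, the 1 member lower in LLC muscle, dropped to 0 with a pseudocount of 0.1 or 0.5, without a filter, with one at 5 TPM (under which it was not tested), all groups in 1 fit or an adjusted p under 0.01, and to 0 to 1 with 1 library left out. In LLC minus dexamethasone the count of 4 became 2 with a pseudocount of 0.1, no filter, all groups in 1 fit or robust variances, 0 under either scaling or an adjusted p under 0.01, and 1 to 4 with 1 library left out. In dexamethasone minus old the count of 1 became 0 with either pseudocount, no filter, a filter of 5 TPM, all groups in 1 fit, robust variances or an adjusted p under 0.01, and 0 to 1 with 1 library left out. Over the same alternatives all genes called higher after dexamethasone numbered 4290, against 530 to 6085, or 1796 to 8495 with 1 library left out. Those called lower numbered 180, against 79 to 563, or 113 to 220. In LLC muscle 96 genes were called lower, against 3 to 366, or 13 to 151. In LLC minus dexamethasone 3281 were, against 458 to 3310, or 1563 to 6666. In dexamethasone minus old 94 were, against 37 to 262, or 60 to 108. The causes were not tested.

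The log2 change turned sign for C2 after dexamethasone (-0.22 and -0.16 under the scalings, and -0.0042 to 0.12 with 1 library left out). It turned for C1ra in LLC minus dexamethasone (-0.029 and -0.014 with the pseudocounts, -0.29 to 0.28 with 1 library left out) and for C4b there (0.062 and 0.019 under the scalings, -0.77 to 0.094). With 1 library left out, changes in LLC muscle ran from -0.85 to 0.040 for C1qa, -0.53 to 0.039 for C1ra, -0.67 to 0.12 for C3 and -0.077 to 0.78 for C4b. Changes with Cyr61 siRNA ran from -0.69 to 0.052 for C1qa, -0.74 to 0.070 for C1qb, -0.49 to 0.22 for C1qc and -0.15 to 0.49 for C3. In dexamethasone minus old they ran from -1.04 to 0.035 for C4b and -0.29 to 0.34 for C7.

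The labels do not say whether replicate numbers pair the samples. Correlations of deviations between samples of like number ran from 0.03 to 0.50, all positive, and in no comparison was each above 0.1. Samples of unlike number were not compared in this way, so these values cannot decide the pairing. A limma fit with the replicate number as a block called 2 members higher in old muscle, against 0 without the block. They were C3 (limma adjusted p = 0.0129) and C4b (limma adjusted p = 6.0e-05). Leaving out 1 library gave 0 to 2. All genes called higher in old muscle numbered 16 in the main fit and 0 to 252 with 1 library left out. Over the other alternatives they numbered 0 to 133, and the share under the block alone is not given here. The block moved no other count of members. Low reads limit C2, C7 and, in young 3, C4b most.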
